A study of Homo sapiens with 6 samples.

Results

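Aminoacyl-tRNA synthetases are the enzymes that join each amino acid to its transfer RNA, the step that fixes which amino acid a codon calls for. The nucleus encodes 1 set that works in the cytosol and another that is imported into mitochondria, and in the cytosol several of the enzymes sit in a large multisynthetase complex held together by the scaffold proteins AIMP1 and AIMP2. The genes were those of a list of 37, namely 19 cytosolic synthetase genes, 16 mitochondrial ones and both scaffold genes. Every probe set whose platform annotation names a listed gene, alone or with other symbols, was taken. The brightest of them, averaged across the 6 arrays, represents its gene. This gave 75 probe sets for 36 genes, out of 19778 genes in all. AIMP2 was not analysed here.

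The cells were HCT116, an established human colorectal carcinoma line, transfected with siRNA and analysed 96 h later. The CDK4/6 siRNA group received an siRNA pool against CDK4 and a single siRNA against CDK6, each at 30 nM. The control group received a non-targeting pool and a negative control siRNA at the same 30 nM each. There were 3 arrays per group, which the labels call biological replicates without saying whether they were separate cultures, and p-values therefore reflect only how far these arrays vary, which may be technical. CDK4 and CDK6 are the kinases that pair with D-type cyclins in G1, and the study asked how cancer cells adapt to their loss, with MYC named in its title.

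All levels are RMA values on a log2 scale, and all changes are CDK4/6 siRNA minus control siRNA on that scale, where 1 unit is a doubling. A gene was called when limma's p, adjusted by Benjamini-Hochberg over all 19778 genes, was under 0.05. The targeted RNAs were at 34.0% (CDK6) and 62.2% (CDK4) of the control level, and MYC rose by 0.42. Array medians lay between 5.36 and 5.39, and arrays of a group correlated at 0.998 across genes. The epithelial marker EPCAM was bright in the controls (12.80) and VIL1 was dim (5.02). Of the 7 epithelial markers 2 rose (KRT8 and KRT18) and 2 fell (CDH1 and CLDN4). The 6 measured markers of leukocytes, fibroblasts and endothelium had mean levels of 3.83 to 6.26, and 0 of them were called. In bulk RNA a change in the mix of cells and a change in RNA per cell cannot be told apart.

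More synthetase genes were higher than lower after CDK4/6 siRNA. Of the 36 genes 17 rose (47.2%), 3 fell (8.33%) and 16 did not pass, against a background of 14.0% of all genes called higher and 12.9% called lower. In either direction 55.6% of the 36 were called, against 26.8% of all genes. Their median change was 0.15, or 1.11-fold, where the median of all genes was -0.0011. In 22 of the 36 all 3 CDK4/6 siRNA arrays lay above all 3 controls, and in 4 they lay below. For all genes those shares were 20.6% and 20.3%, or 40.9% in either direction. The background holds dimmer genes, with mean levels from 2.74 to 14.74, whereas the 36 lay between 6.58 and 12.92. With the dimmest 25% of genes left out, 5666 of the rest were called, against 5309 of all 19778. The rest are fewer genes, so the called share among them is clearly above the 26.8% of all genes. The excess of the 36 over that brighter background is therefore smaller. No share among genes of like level was computed, here or for the lists below. Most changes were modest. Only MARS2 reached a doubling, and standard errors of the called genes ran from 0.052 to 0.096. The 16 genes that did not pass had changes from -0.087 to 0.17.

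**Figure D1:**
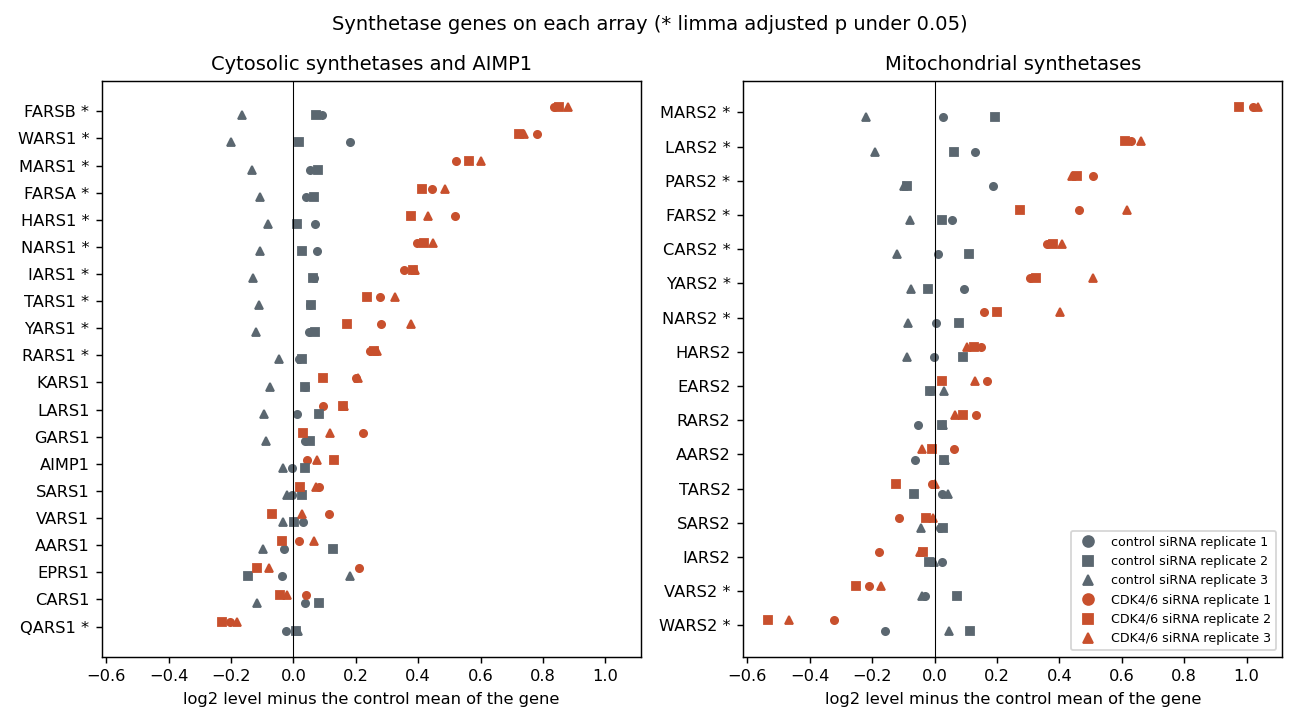
Each row is a gene and each point an array, plotted as its log2 level minus the mean of the 3 control arrays. Cytosolic genes with AIMP1 are on the left and mitochondrial genes on the right. The 17 genes that rose have all 3 CDK4/6 siRNA points to the right of all 3 control points, and control replicate 3, the grey triangle, is their lowest point.

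The control arrays did not lie equally close together. Control replicate 3 was the lowest control for 28 of the 36 genes, whereas 40.1% of all genes had their lowest control there, and it was the lowest of the 6 arrays for all 17 genes that rose. Without it 15 of the 36 genes rose (41.7%, against 11.2% of all genes) and 3 fell. YARS1 (0.22, limma adjusted p = 0.0824) and NARS2 (0.21, limma adjusted p = 0.131) then lost their calls. The part of this array in the other results was not tested beyond such values.

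The counts also depend on the scale given to the arrays, which RMA makes alike in distribution. Control RNAs added to the hybridisation mix were lower by 0.11 in the CDK4/6 siRNA arrays (10.25 against 10.15). By array they read 10.25, 10.27 and 10.24 in controls and 10.18, 10.08 and 10.18 after CDK4/6 siRNA. A difference in total RNA was not tested. Scaling to these spike-ins shifted the all-gene median to 0.11, and then 23 synthetase genes rose (63.9%, against 23.9% of all genes) and 1 fell (against 6.67%).

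Among the cytosolic enzymes 10 of 19 genes rose (52.6%, against 14.0% of all genes) and 1 fell (5.26%, against 12.9%), with a median change of 0.26. Both subunits of phenylalanyl-tRNA synthetase rose. FARSB encodes the beta subunit, which holds the editing site that removes misplaced tyrosine. It read 9.94, 9.92 and 9.68 on the control arrays and 10.68, 10.69 and 10.72 after CDK4/6 siRNA. The treated arrays lay close together and far above the controls, a change of 0.86 (1.81-fold, SE 0.076, limma adjusted p = 0.000117). FARSA, the catalytic alpha subunit, read 8.23, 8.26 and 8.09 in controls and 8.64, 8.60 and 8.68 after CDK4/6 siRNA. Its change of 0.45 (SE 0.064, limma adjusted p = 0.000997) also had no overlap between groups, and its other probe set gave 0.55. For FARSB a dim second probe set rose by 0.63. Another, at a mean level of 3.48 and the only one whose name lacks the suffix for probes shared between transcripts (called plain-name here), gave 0.063 and missed the threshold.

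WARS1 encodes cytosolic tryptophanyl-tRNA synthetase, an enzyme also known for strong induction by interferon gamma. Controls read 8.54, 8.38 and 8.16, and the CDK4/6 siRNA arrays read 9.14, 9.08 and 9.10. The controls were spread wider (SD 0.19) than the treated arrays (SD 0.029), and the groups did not overlap. The change was 0.75 (1.68-fold, SE 0.091, limma adjusted p = 0.00047), and its other probe set rose by 0.56.

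MARS1, which charges both initiator and elongator methionine tRNAs, read 9.85, 9.88 and 9.66 in controls and 10.32, 10.36 and 10.40 after CDK4/6 siRNA. It rose by 0.56 (SE 0.069, limma adjusted p = 0.000499). Its probe sets also carry the symbol of the microRNA gene MIR6758, and the other probe sets rose by 0.67 and 0.23. The remaining cytosolic genes that rose were HARS1 for histidine (0.44), NARS1 for asparagine (0.42), IARS1 for isoleucine (0.38), TARS1 for threonine (0.28), YARS1 for tyrosine (0.28) and RARS1 for arginine (0.26). YARS1 was the least firm of these. Its groups came as close as 10.15 in control replicate 2 and 10.25 in CDK4/6 siRNA replicate 2, and a dim plain-name probe set gave -0.0068 (limma adjusted p = 0.974 among plain-name probe sets). With the mean of their probe sets TARS1 (0.083) and YARS1 (0.13) lost their calls.

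QARS1, for glutamine, was the cytosolic gene that fell. It read 11.30, 11.34 and 11.34 in controls and 11.12, 11.10 and 11.15 after CDK4/6 siRNA, a narrow but complete separation. The change was -0.20 (SE 0.052, limma adjusted p = 0.0174), on a probe set also annotated to MIR6890. With the spike-in scaling it was -0.095 and lost the call. Without control replicate 2 (-0.20) or CDK4/6 siRNA replicate 2 (-0.19), and with the replicate number as a block (limma adjusted p = 0.051), the call was lost too.

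The 8 cytosolic genes that did not pass were KARS1 (0.17), LARS1 (0.14), GARS1 (0.12), SARS1 (0.057), VARS1 (0.023), AARS1 (0.015), EPRS1 (0.0048) and CARS1 (-0.0086). GARS1 and KARS1 serve both compartments, since each gene yields a cytosolic and a mitochondrial form. For KARS1 the 3 treated arrays (13.04, 12.93 and 13.04) lay above the controls (12.88, 12.88 and 12.76), and its second probe set rose by 0.23, while the one that stands for the gene missed the threshold (limma adjusted p = 0.0784). EPRS1, a single protein that charges both glutamate and proline, had the widest standard error of the list, 0.108. Its controls read 10.78, 10.67 and 10.997 and its treated arrays 11.03, 10.70 and 10.74, so the groups overlapped, with 1 treated array above every control and 1 control below every treated array.

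In the multisynthetase complex 3 of 8 measured genes rose (MARS1, IARS1 and RARS1), QARS1 fell, and KARS1, LARS1, EPRS1 and AIMP1 did not pass. That is 37.5% higher and 12.5% lower, against 14.0% and 12.9% of all genes, with a median of 0.15. The count depended on the setting, with 6 higher when probe sets were averaged (median 0.23). Of all genes 4744 were then called in either direction, against 5309 on the brightest probe sets. With the spike-in scaling 5 were higher and 0 lower (median 0.26), where 23.9% of all genes were higher and 6.67% lower. AIMP1, whose cleaved form is known as a secreted cytokine, gave 0.084 on its brightest probe set (limma adjusted p = 0.322). Its other probe sets rose by 0.38 and 0.33. These lay at mean levels of 9.04 and 7.74, below the 10.54 of the brightest, so the size of the AIMP1 change depends on the probe set.

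**Figure D2:**
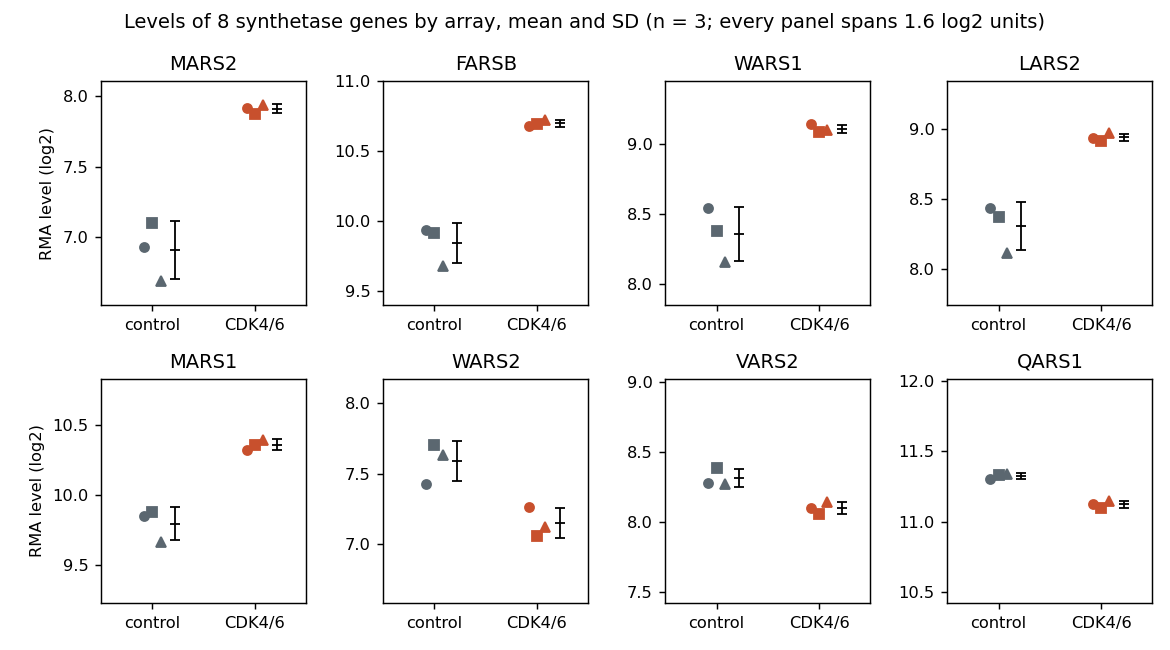
RMA levels (log2) on each array for 8 genes, with the mean and SD of 3 arrays per group; circles, squares and triangles are replicates 1, 2 and 3. MARS2, FARSB, WARS1, LARS2 and MARS1 are higher in all CDK4/6 siRNA arrays, and WARS2, VARS2 and QARS1 are lower in all of them.

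Mitochondrial enzymes charge the tRNAs that decode messenger RNAs made from mitochondrial DNA, which encodes a small set of respiratory chain subunits. Of their 16 genes 7 rose (43.8%, against 14.0% of all genes), with a median change of 0.12. The 2 that fell made up 12.5%, near the 12.9% of all genes. MARS2, the mitochondrial methionyl-tRNA synthetase, changed most of all 36. It read 6.93, 7.09 and 6.68 in controls and 7.92, 7.88 and 7.94 after CDK4/6 siRNA. Every treated array was at least a doubling above control replicate 3, and the change was 1.01 (2.01-fold, SE 0.096, limma adjusted p = 0.000161). It rests on 1 probe set, and the change lay between 0.90 and 1.12 under all 20 alternatives.

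LARS2, the mitochondrial leucyl enzyme, read 8.44, 8.37 and 8.12 in controls and 8.94, 8.92 and 8.97 after CDK4/6 siRNA. It rose by 0.63 (1.55-fold, SE 0.083, limma adjusted p = 0.000702), and its second probe set rose by 0.52. PARS2 for proline rose by 0.47, FARS2 for phenylalanine by 0.45, CARS2 for cysteine by 0.38, YARS2 for tyrosine by 0.38 and NARS2 for asparagine by 0.25. FARS2 and NARS2 had wide treated groups. FARS2 read 7.84, 7.65 and 7.99 there, and NARS2 read 9.36, 9.40 and 9.60. NARS2 was also the called gene nearest the threshold (limma adjusted p = 0.04) and lost its call in 10 of 20 alternatives. With the mean of its 5 probe sets, of which 4 were dim, CARS2 gave 0.094 and lost its call.

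WARS2, the mitochondrial tryptophanyl enzyme, read 7.43, 7.70 and 7.63 in controls and 7.26, 7.05 and 7.12 after CDK4/6 siRNA. The highest treated array was below the lowest control, and the gene fell by 0.44 to 73.7% of the control level (SE 0.086, limma adjusted p = 0.00486). A second probe set, dimmer at 6.34 and the brightest plain-name one, gave -0.16 and missed the threshold, as did the mean of its probe sets (-0.14). VARS2 for valine fell by 0.21 (SE 0.058, limma adjusted p = 0.0255), from 8.28, 8.38 and 8.27 to 8.10, 8.06 and 8.14. Its call ended with the spike-in scaling (-0.10), with the replicate block (limma adjusted p = 0.0623) and without control replicate 2 (-0.17) or CDK4/6 siRNA replicate 1 (-0.21) or 2 (-0.19). The genes that did not pass were HARS2 (0.13), EARS2 (0.11), RARS2 (0.097), AARS2 (0.0042), TARS2 (-0.043), SARS2 (-0.048) and IARS2 (-0.087). EARS2, which glutamylates mitochondrial tRNAs, had further probe sets that rose by 0.37 and 0.29.

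Cytosolic and mitochondrial genes were then set against each other for the 13 amino acids with 1 measured gene of each kind. Per array the mitochondrial value was subtracted from the cytosolic one, and the group difference of that value was tested by a two-sided exact permutation test, which cannot go below 0.1 with 3 arrays against 3. Both genes rose for methionine, asparagine and tyrosine. For histidine, isoleucine, arginine and threonine the cytosolic gene rose and the mitochondrial one did not pass. For cysteine and leucine it was the other way round. Tryptophan was the pair with calls in opposite directions, with WARS1 up and WARS2 down. Their changes differed by 1.19 (SE 0.18, exact permutation p = 0.1, 0.13 after Benjamini-Hochberg over 13 pairs). The cytosolic change exceeded the mitochondrial one in 9 pairs and was smaller in 4, the largest gaps of the second kind being leucine (-0.49), methionine (-0.45) and cysteine (-0.39). These sizes depended on the probe sets. In 10 pairs the difference separated the groups without overlap. Among single genes 40.9% separated them in either direction, and the share for other pairs of genes was not computed. After adjustment 0 of the 13 passed, which a smallest p of 0.1 does not allow. With probe sets averaged the gap was -0.037 for cysteine, -0.25 for tyrosine (from -0.10) and 0.13 for threonine (from 0.32). For tryptophan the averaged gap was 0.79 (from 1.19). On plain-name probe sets the gap was 0.90 for tryptophan, -0.78 for methionine and -0.39 for tyrosine. The plain-name probe sets of MARS1 and YARS1 were dim, at mean levels of 4.995 and 5.53. WARS2 lost its call in both settings, so tryptophan then had no calls in opposite directions. Whether the cytosolic set as a whole moved more than the mitochondrial set was not tested.

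**Figure D3:**
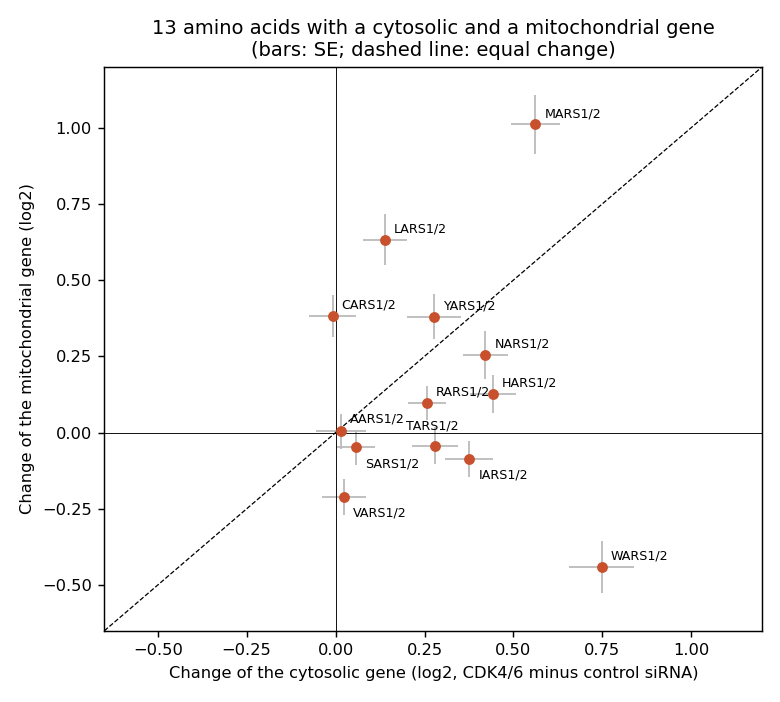
Change of the cytosolic gene (horizontal) against that of the mitochondrial gene for the same amino acid (vertical), both log2 with SE bars, for 13 amino acids. WARS1/2 lies in the lower right, with 0.75 and -0.44, and LARS1/2, MARS1/2 and CARS1/2 lie above the line of equal change.

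The synthetases fall into a pair of unrelated structural classes, I and II, that bind ATP with different folds. Grouped that way after the values were seen, and with the double-class EPRS1 and the scaffold left out, 9 of 18 class I genes rose and 3 fell, and 8 of 16 class II genes rose and 0 fell. Their median changes were 0.20 and 0.21. Among all genes 14.0% were called higher and 12.9% lower, and the classes were not tested against each other.

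HARS1 and HARS2 are neighbours on chromosome 5, transcribed away from each other, and are shown because their starts are only 84 bases apart while their changes differed. HARS1 read 9.75, 9.69 and 9.60 in controls and 10.20, 10.06 and 10.11 after CDK4/6 siRNA (0.44, limma adjusted p = 0.00111). HARS2 read 9.65, 9.74 and 9.57 and then 9.80, 9.78 and 9.76 (0.13, limma adjusted p = 0.181). The changes differed by 0.32 (SE 0.055, exact permutation p = 0.1). The bases between both starts follow, from RefSeq, GRCh38.p14, chr5:140691371-140691454, on the minus strand as HARS1 is read. Capitals mark CCGGAAGT on either strand, the core that ETS family factors such as GABPA are known to bind.
HARS2 start to HARS1 start: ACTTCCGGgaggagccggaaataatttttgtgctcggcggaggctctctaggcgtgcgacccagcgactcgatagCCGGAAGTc

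SARS2, the mitochondrial seryl enzyme, has MRPS12, a protein of the small mitochondrial ribosomal subunit, as its neighbour in the same head-to-head layout, with 180 bases between the starts. SARS2 read 7.29, 7.30 and 7.23 in controls and 7.16, 7.25 and 7.27 after CDK4/6 siRNA, without separation (-0.048). MRPS12 rose by 0.69 (SE 0.074, limma adjusted p = 0.000267). The changes differed by 0.74 in size, MRPS12 being the larger (exact permutation p = 0.1). The stretch is shown for this contrast, from GRCh38.p14, chr19:38930764-38930943, minus strand, as SARS2 is read. It holds no CCGGAAGT.
MRPS12 start to SARS2 start: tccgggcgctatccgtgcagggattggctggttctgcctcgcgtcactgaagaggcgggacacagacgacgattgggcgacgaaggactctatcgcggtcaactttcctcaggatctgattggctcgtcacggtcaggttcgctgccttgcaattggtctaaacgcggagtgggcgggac

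A further 4 genes had a measured head-to-head neighbour within 250 bases. WARS1 rose by 0.75 beside WDR25 (0.15, limma adjusted p = 0.226), and FARS2 rose beside LYRM4, which also rose (0.31). RARS2 (0.097) did not pass beside ORC3, which rose by 0.27, and neither KARS1 nor its neighbour TERF2IP (-0.019) passed. These pairs were looked up after the values were seen.

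Promoter sequence was given for 31 of the 36 genes in the RefSeq table. The 250 bases before each start were searched on both strands for CACGTG, the E-box that MYC and MAX are known to bind, and for TGATGNAA, a form of the element that ATF4 and C/EBP proteins are known to share. The E-box was found for IARS1, MARS2 and EARS2, 3 of 31 (9.68%), against 6.49% of 27305 promoters in that table. TGATGNAA was found for IARS1, AARS1 and YARS2, 3 of 31 (9.68%), against 3.19%. CCGGAAGT, searched after the stretch between the histidine genes was seen, was found for 7 of 31 (22.6%), against 3.64%. Of these HARS1, NARS1, PARS2 and WARS1 rose and HARS2, CARS1 and EARS2 did not pass, and HARS1 and HARS2 share their matches. The background shares take every promoter of that table, whether or not its gene was measured here or had a like level. Such matches describe the letters only. The windows below are those of the 5 genes with an E-box or a TGATGNAA match, with the match in capitals, from GRCh38.p14 and written 5′ to 3′ as the gene is read. They lie at chr2:197705331-197705368 (plus strand, MARS2), chr9:92293851-92293910 and chr9:92293698-92293737 (minus, IARS1), chr16:23557351-23557392 (minus, EARS2), chr16:70289659-70289720 (minus, AARS1) and chr12:32756060-32756121 (minus, YARS2).
MARS2, E-box: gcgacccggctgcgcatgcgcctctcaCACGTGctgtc
IARS1, E-box: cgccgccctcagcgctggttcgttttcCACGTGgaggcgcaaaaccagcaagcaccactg
EARS2, E-box: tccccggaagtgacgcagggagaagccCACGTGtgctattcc
IARS1, TGATGNAA on the other strand: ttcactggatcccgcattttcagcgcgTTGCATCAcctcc
AARS1, TGATGNAA on the other strand: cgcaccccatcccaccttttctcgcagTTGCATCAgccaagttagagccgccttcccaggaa
YARS2, TGATGNAA: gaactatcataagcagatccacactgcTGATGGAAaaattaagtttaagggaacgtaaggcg

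MARS2 and IARS1 rose by 1.01 and 0.38, whereas EARS2 (0.11) did not pass. AARS1 was at 9.38, 9.54 and 9.31 in controls and 9.43, 9.37 and 9.47 after CDK4/6 siRNA, and the groups overlapped (0.015). YARS2 rose by 0.38, from 8.91, 8.79 and 8.74 to 9.12, 9.14 and 9.32.

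When amino acids run short, uncharged tRNA activates the kinase GCN2 (EIF2AK4), and the factor ATF4 then drives many cytosolic synthetase genes together with amino acid transporters and the asparagine and serine synthesis enzymes. Of 10 synthetase genes listed as known ATF4 targets 5 rose (WARS1, MARS1, NARS1, IARS1 and TARS1) and 0 fell, with a median of 0.20, where 14.0% of all genes were called higher and 12.9% lower. Of the other 9 cytosolic genes 5 rose and 1 fell. Of the listed targets GARS1, SARS1, AARS1, EPRS1 and CARS1 did not pass. Of 26 other genes of this response 6 rose and 6 fell (23.1% each), with a median of 0.054. SLC3A2 (0.59) and SLC7A5 (0.61), which together form a large neutral amino acid transporter, rose, as did the serine synthesis enzyme PSAT1 (0.71). The other enzymes of that pathway went the other way, PHGDH falling by 0.35 and PSPH by 0.39, both named after their values were seen. DDIT3, a proapoptotic factor, fell by 0.98, the mTORC1 inhibitor DDIT4 by 0.93 and CEBPB, a partner of ATF4, by 0.47. The remaining genes that rose were ATF5 (0.51), EIF2AK4 (0.24) and GCN1 (0.23), and STC2 (-0.26) also fell. They too were named after their values were seen. ATF4 itself gave 0.058 (limma adjusted p = 0.51) and ASNS, asparagine synthetase, gave -0.13 (limma adjusted p = 0.324), both named after their values were seen. On plain-name probe sets 1 gene of this list rose and 5 fell, where 12.1% of all genes were called higher and 10.7% lower. SLC3A2, SLC7A5 and DDIT4, among others, have no plain-name probe set and are absent from that count. How many of the 26 genes remained there is not given, so these counts cannot be set directly against the 6 and 6.

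Since WARS1 responds to interferon gamma, 16 genes of that response were set beside it, of which 15 were measured. Of these 2 rose (13.3%) and 3 fell (20%), shares not far from the 14.0% and 12.9% of all genes. Those that rose were the immunoproteasome subunit PSMB10 (0.83) and the STAT partner IRF9 (0.29). PSMB9 (-0.48), the class I molecule HLA-E (-0.33) and the interferon-inducible GTPase gene GBP2 (-0.28) fell. The median was 0.011. The GBP2 probe set was dim, at 3.81 in controls and 3.53 after CDK4/6 siRNA. Its call was lost with the spike-in scaling (-0.17), with probe sets averaged (-0.11) and without variance moderation. It was also lost without control replicate 2 (-0.19) or 3 (-0.31) or CDK4/6 siRNA replicate 1 (-0.25) or 2 (-0.27).

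Genes that prepare tRNA before charging were mostly higher. Of 22 measured tRNA maturation and export genes 16 rose (72.7%, against 14.0% of all genes) and 0 fell, with a median of 0.38. POP1, a protein subunit of RNase P, which trims the 5′ end of tRNA precursors, rose by 1.01 (SE 0.057, limma adjusted p = 3.14e-05). TRNT1, which adds the CCA end that takes the amino acid, rose by 0.99, ELAC1, a tRNA 3′ endonuclease, by 0.89 and the RNase P subunits POP5 and RPP40 by 0.87 and 0.75. TRMT10C, part of mitochondrial RNase P, rose by 0.74. XPOT, the tRNA exporter, gave 0.019 (limma adjusted p = 0.879) and is named after its value was seen.

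Of 17 measured partners in charging and delivery 7 rose (41.2%, against 14.0% of all genes) and 1 fell (5.88%, against 12.9%), with a median of 0.15. QRSL1, the catalytic subunit of the amidotransferase that makes mitochondrial glutaminyl-tRNA from glutamyl-tRNA, rose by 0.49. TSFM, the exchange factor of the mitochondrial elongation factor, rose by 0.58 and DTD2, which removes mischarged amino acids, by 0.55. SEPHS1 and SEPHS2, of the selenophosphate synthetase family that serves selenocysteine tRNA, each rose by 0.29. EEF1D, a subunit of the cytosolic elongation factor exchange complex, fell by 0.23, a call lost with the spike-in scaling (-0.12) and when its probe sets were averaged (-0.15). Without control replicate 3 the median was 0.084.

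**Figure D4:**
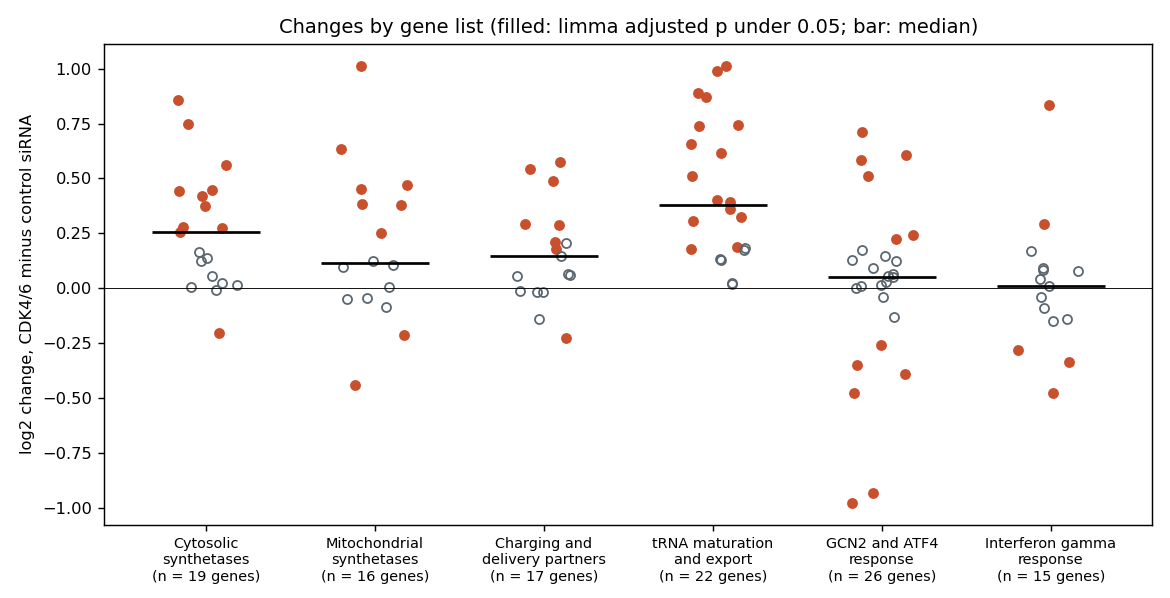
Log2 change of each measured gene in 6 lists; filled points passed limma's adjusted p under 0.05 and the bar is the list's median. The tRNA maturation genes have the highest median, 0.38, and the GCN2 and ATF4 list has called genes on both sides of 0.

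Probe sets of 1 gene did not always give the same size of change. With each of 41096 probe sets tested separately, 29 of the 75 probe sets of these genes were called higher and 3 lower, against 10.9% and 9.84% of all probe sets, or 20.8% in either direction. No gene had calls in both directions. Of the 39 probe sets that did not stand for their gene, 22 had a mean level of 6 or more, and 11 of those were called higher. Of the 17 below 6, 2 were called. FARSA, LARS2, WARS1 and MARS1 each had at least 1 further probe set that rose. SARS1, KARS1, EARS2 and AIMP1 had a further probe set that rose while the brightest did not pass.

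**Figure D5:**
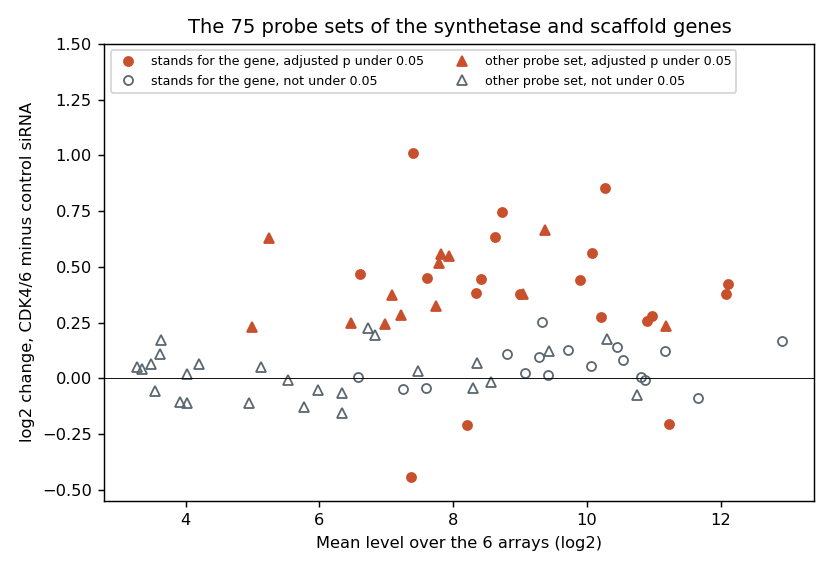
Mean level over the 6 arrays against log2 change for the 75 probe sets; circles stand for their gene, triangles are further probe sets, and filled symbols passed the threshold among all probe sets. Of the 17 further probe sets below a level of 6, 2 are filled.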

How the data were processed

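Gene expression was measured on 6 single-channel Affymetrix arrays. The authors deposited log2 values. RMA is named in the submitters' processing notes, with no version or filter. Of 54675 probe sets 41097 had 1 gene symbol in the platform annotation, 1801 several and 11777 none. Probe sets with 1 symbol were used, and for listed synthetase genes also those with several, the only kind for MARS1, QARS1 and TARS2. No detection calls were used, and the number of arrays limits the precision.

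Changes were fitted with limma 3.58.1 (lmFit, eBayes) under R 4.3.3, and the model held only the group. On simulated data with 19778 genes it called 79% of 100 genes changed by 0.5 and 98% of 100 changed by 1, with 3 false calls of 180. No other genes were changed there, the noise was independent between genes and arrays, and changes under 0.5 were not simulated. These rates therefore need not hold for the real arrays. The genes, lists, alternatives and the rule for naming (all listed synthetase genes, CDK4, CDK6, MYC and up to 6 genes per further list with the smallest adjusted p) were chosen with earlier results of these data known. Alternatives were other scalings, filters, probe set choices, variance models, a stricter threshold and each array left out. Promoter sequences are RefSeq's (GRCh38.p14). Symbols were those of the platform annotation. Figures were drawn with matplotlib 3.10.9.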

Additional observations from a re-analysis of the deposited data

How the results depend on the processing

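Of the 17 genes that rose, 11 kept their call under every alternative that gave them a value, and of the 3 that fell 0 did. The direction of YARS1 turned on plain-name probe sets (-0.0068). The median change of the epithelial markers turned with the spike-in scaling (0.049). Genes called lower numbered 1 of the 36 (0 cytosolic, 1 mitochondrial) with the replicate block, with the spike-in scaling and at a threshold of 0.01, where 3328 of all genes were called. The mitochondrial count of lower calls was also 1 with averaged probe sets, on plain-name probe sets and without variance moderation. The cytosolic one was 0 with 1-symbol probe sets. Same-numbered arrays did not deviate together (correlations of -0.0102, -0.121 and -0.00657), so no pairing by replicate number was seen, though the labels do not say what a number marks. With the block 16 of the 36 rose and 4739 of all genes were called. The mitochondrial median was 0.090 with quantile normalisation and 0.094 with cyclic loess. Under the spike-in scaling the medians were 0.26 (all 36), 0.37 (cytosolic), 0.22 (mitochondrial), 0.25 (charging and delivery), 0.49 (tRNA maturation), 0.16 (GCN2 and ATF4) and 0.12 (interferon gamma). Averaged probe sets gave a cytosolic median of 0.16. Plain-name probe sets gave 0.20 for cytosolic genes, 0.012 for GCN2 and ATF4 (1 gene higher) and -0.040 for interferon gamma. SLC3A2, SLC7A5 and DDIT4 have no such probe set and are absent there. Charging and delivery had 0 lower calls under the spike-in scaling, averaged and plain-name probe sets. With each array left out in turn, 1 to 3 of the 36 were lower (0 to 1 cytosolic, 1 to 2 mitochondrial). The medians then ran from 0.097 to 0.14 (mitochondrial), 0.084 to 0.18 (charging and delivery) and -0.039 to 0.057 (interferon gamma). Beyond the settings' own construction, the cause of these shifts was not tested. The 3 arrays a group limit all comparisons, and dim probe sets give little.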
